A study of Mus musculus with 6 samples.

Results

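The genes of the vacuolar ATPase (V-ATPase) and of the cathepsins were described in mouse CD8+ T cells primed with IL-12, primed with IL-2, or left naive. The members were the genes whose array probe sets carried 1 symbol beginning with Atp6v or Atp6ap, or 1 cathepsin symbol (Cts followed by letters or digits only). To choose members, the rule reads symbols and no expression values. However, Atp6v0d2 was singled out beforehand as an induced gene. Its pattern was thus known before the test, and its results are given as a description. The rule found 45 of 19938 genes, of which 24 belong to the V-ATPase (13 genes of V1 subunits, 8 of V0 subunits and 3 of accessory proteins) and 21 are cathepsins. The 4 probe sets that carried Cts3 and Ctsm together were left out.

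The V-ATPase is a rotary pump that acidifies lysosomes and endosomes. Its cytosolic V1 sector hydrolyses ATP, and its membrane sector V0 carries the protons; V1 can detach from V0 and reassemble, which sets pump activity. Several subunits are encoded by paired genes, one used in most cells and the other in few cell types. Subunit d is such a pair: Atp6v0d1 is the widespread form, and Atp6v0d2 is known from osteoclasts, macrophages and kidney. Cathepsins are proteases, most of which need the acid lumen: B, C, F, H, K, L, O, S, W and Z are cysteine proteases, D and E are aspartic proteases, and A and G are serine proteases. In immune cells, cathepsin C activates granzymes, cathepsin W is made by CD8+ T cells and natural killer cells, and cathepsins S and L process the MHC class II invariant chain.

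All 6 samples were CD8+ T cells from spleens of female C57BL/6 mice that carry the Pmel-1 T cell receptor transgene, which recognises the melanoma antigen gp100; the age of the mice was not given in the sources used here. IL-12 primed cells (2 arrays) received gp100 for 4 days and IL-12 for 6 days. IL-2 primed cells (2 arrays) received the same antigen for the same 4 days and IL-2 for 6 days. Naive cells (2 arrays) came straight from the spleen and were sorted for CD8 and Thy1.1, whereas no sort of the primed cells is named. The primed groups differ from naive cells in antigen, cytokine, days in culture and sorting, which cannot be told apart in those comparisons. The labels do not state that each array had its own mouse or culture, so p-values may measure technical spread only.

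Values are log2 RMA values, in which array background and array-to-array differences have been reduced, and a difference of 1 is a 2-fold difference. They are relative to the other arrays and not to other probe sets, so levels of different genes were not ranked. Within a bulk sample, fewer cells of a type and less RNA per cell cannot be told apart. Genes were tested where at least 2 of 6 arrays read above 6.83, the median of all values, and 30 of the 45 members and 11147 of the 19938 genes passed. A gene was called where limma's adjusted p (Benjamini-Hochberg over the 11147 genes) was under 0.05. The medians of the 6 arrays still ranged from 6.78 to 6.95. The paired arrays correlated across genes, which are not replicates, at 0.992 (IL-12), 0.994 (IL-2) and 0.986 (naive). The naive arrays stood further apart for the members than for other genes: 26 of the 30 tested members read higher on naive array 2 than on naive array 1, by a median of 0.29, against 60.9% of all tested genes and a median of 0.07. The median SD of the tested members was 0.06 in IL-12 cells, 0.06 in IL-2 cells and 0.20 in naive cells. Of the CD8 T cell markers, 10 were on the array and all 10 passed the filter, with a mean level between 11.69 and 12.10 on the 6 arrays. Transcripts of other cell types were also present and are given beside the cathepsins.

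Atp6v0d2 was higher in IL-12 cells than in both other groups, where its values were as low as those of most Y-linked genes, which these cells lack. The fitted differences were 9.0-fold against IL-2 cells and 9.15-fold against naive cells and are not exact folds of transcript, since they are measured from that low level. The other 18 tested V-ATPase genes lay within 0.42 of no change on the log2 scale between the primed groups. Among cathepsins, Ctsh was 1.93-fold higher and Ctss, Ctso and Ctsl were 1.79-fold, 1.40-fold and 1.38-fold lower in IL-12 than in IL-2 cells. Both IL-2 arrays of Ctsh read under the filter threshold, so its fold is also measured from a low level. Ctss and Ctso were lowest in IL-12 cells, between in IL-2 cells and highest in naive cells.

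Lysosomal genes often carry the E-box hexamer CACGTG near their start, which is the core of the element recognised by the transcription factor TFEB and its relatives. RefSeq promoter windows (GRCm38.p6, 250 bases before to 50 after the annotated start) were found for 34 of the 45 members, and Atp6v0d2 and Ctsh are among the 11 with none here. The hexamer, which reads the same on both strands, occurred in 9 of these 34 genes (26.5%), against 8.09% of the 27025 genes in the table. The 9 were Atp6v0b, Atp6v0d1, Atp6v0e, Atp6v1a, Ctsa, Ctsd, Ctsf, Ctsl and Ctsll3. The longer form, with GT before or AC after the hexamer, occurred in 4 of the 34 (11.8%; Atp6v0b, Atp6v0d1, Ctsa and Ctsd), against 2.55% of the table; every longer match is also a match of the hexamer. These are matches of letters, not shown sites. The windows of 4 members are printed from 250 bases before to 30 after the start, 5′ to 3′ on the gene's strand, with the hexamer in capitals. Atp6v0d1 is shown as the widespread partner of Atp6v0d2. Atp6v1a and Ctsd are shown as genes with the hexamer that were called higher in IL-12 than in naive cells. Ctss is shown as the cathepsin gene with the largest fall and has no match in this window. Among the other hexamer genes, Atp6v0b, Atp6v0d1, Atp6v0e, Ctsa and Ctsl were not called for IL-12 against naive, and Ctsf and Ctsll3 were not tested. Whether the hexamer goes with a direction of change was not tested. The hexamer of Atp6v0d1 (chr8:105566035-105566314, minus strand) begins at position -3 from the start. That of Atp6v1a (chr16:44139230-44139509, minus strand) begins at -131. Those of Ctsd (chr7:142387798-142388077, minus strand) begin at positions -245 and -98. The window of Ctss is chr3:95526536-95526815 on the plus strand.
Atp6v0d1: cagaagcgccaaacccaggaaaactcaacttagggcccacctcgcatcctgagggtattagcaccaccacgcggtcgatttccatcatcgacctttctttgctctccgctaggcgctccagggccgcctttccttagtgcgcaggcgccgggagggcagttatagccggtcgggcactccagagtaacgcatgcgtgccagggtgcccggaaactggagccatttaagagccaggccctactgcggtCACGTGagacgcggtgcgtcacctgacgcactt
Atp6v1a: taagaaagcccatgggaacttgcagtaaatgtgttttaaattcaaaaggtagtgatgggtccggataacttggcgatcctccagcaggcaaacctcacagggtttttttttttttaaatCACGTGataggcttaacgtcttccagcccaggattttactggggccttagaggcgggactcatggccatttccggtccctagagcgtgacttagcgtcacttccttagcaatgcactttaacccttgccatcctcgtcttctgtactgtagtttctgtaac
Ctsd: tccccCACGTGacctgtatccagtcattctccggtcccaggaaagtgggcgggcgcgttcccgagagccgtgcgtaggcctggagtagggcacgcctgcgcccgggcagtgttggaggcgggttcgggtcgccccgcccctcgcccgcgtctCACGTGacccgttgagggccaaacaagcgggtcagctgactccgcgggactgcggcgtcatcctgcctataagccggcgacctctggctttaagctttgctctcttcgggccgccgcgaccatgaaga
Ctss: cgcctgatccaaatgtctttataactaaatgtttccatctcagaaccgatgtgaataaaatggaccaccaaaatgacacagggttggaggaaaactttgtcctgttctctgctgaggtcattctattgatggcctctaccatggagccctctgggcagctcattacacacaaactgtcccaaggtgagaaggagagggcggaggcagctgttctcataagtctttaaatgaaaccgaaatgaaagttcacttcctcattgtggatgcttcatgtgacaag

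The comparison of IL-12 with IL-2 primed cells sets the cytokines side by side in samples given the same antigen. No sort of the primed cells is named. B cell, MHC class II and some myeloid genes also differed between these groups, as given beside the cathepsins. The part of other cells in the differences below, that of Atp6v0d2 included, was not tested. Of the 19 tested V-ATPase genes, 1 was higher (Atp6v0d2) and 1 lower (Atp6v1d), where 20.8% of all tested genes were called (9.82% higher and 11% lower). Atp6v0d2 passed the filter through its IL-12 arrays alone, and Atp6v0a1 through its naive arrays alone. Without those 2 genes, 0 of 17 were higher and 1 was lower by limma (1 and 2 at an unadjusted p under 0.05). The 19 held 1 call of at least 2-fold, where 3.3% of all tested genes had one. The median log2 fold change of the 19 was -0.02, against 0.02 for all tested genes. The 2 calls became 1 without any 1 of the primed arrays and 6 without either naive array.

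Atp6v0d2 (probe set 10511779) had values of 8.35 and 7.10 in IL-12 cells, 4.61 and 4.50 in IL-2 cells and 4.56 and 4.50 in naive cells. Both IL-12 arrays were above all 4 others, and the IL-2 and naive arrays overlapped. The log2 fold change was 3.17 ± 0.32 against IL-2 cells (SE; limma adjusted p = 0.000297, with 2 arrays in each group) and 3.19 ± 0.32 against naive cells (limma adjusted p = 4.41e-05), while IL-2 differed from naive cells by 0.02 ± 0.32 (limma adjusted p = 0.961). The gene entered the test through the IL-12 arrays, where it is high; with no filter, its limma adjusted p was 0.00024 against IL-2 cells and 3.47e-05 against naive cells. The size of the difference depended on the array: IL-12 array 1 read 13.9-fold and IL-12 array 2 read 5.83-fold above the IL-2 mean. The 1.25 between the IL-12 arrays (2.38-fold) was a gap that 10 of 11147 tested genes reached, Atp6v0d2 among them. For scale, the 8 Y-linked genes on the array, which these female cells lack, had group means from 3.02 to 7.89, and 6 of the 8 were at most 4.96. The IL-2 and naive values of Atp6v0d2 lay in that lower range. Its fitted fold is thus measured from a level that genes absent from these cells also show. IL-12 array 2 (7.10) lay under the highest Y-linked mean, that of Sry (7.89), and IL-12 array 1 (8.35) above it. Levels of different probe sets give a rough scale only.

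**Figure D1:**
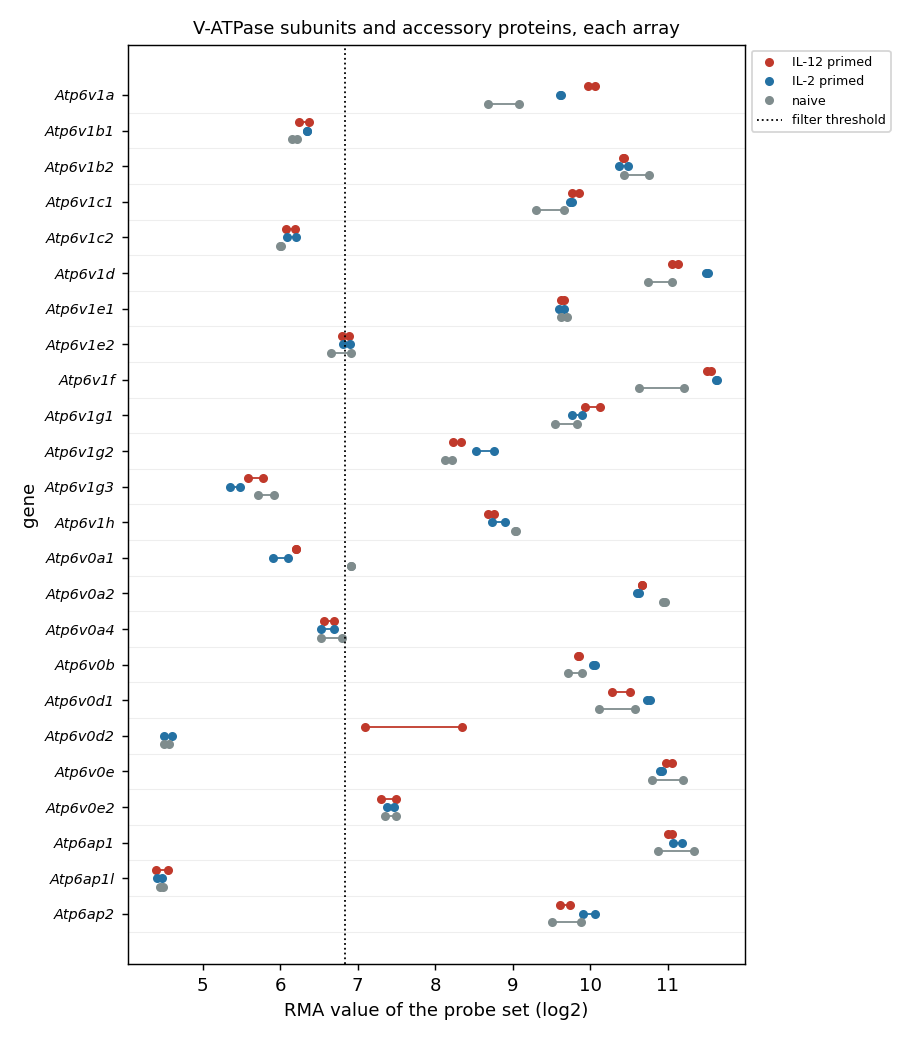
RMA values (log2, x axis) of the 24 V-ATPase genes, V1 subunits first, then V0 subunits and accessory proteins, with IL-12, IL-2 and naive arrays as joined pairs of points and the filter threshold as a dotted line. Atp6v0d2 is the gene whose IL-12 arrays (8.35 and 7.10) lie far to the right of its IL-2 and naive arrays (4.50 to 4.61).

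Its partner gene Atp6v0d1 (probe set 10581289), whose promoter is printed above, did not follow it. Atp6v0d1 had values of 10.52 and 10.27 in IL-12 cells, 10.77 and 10.74 in IL-2 cells and 10.11 and 10.58 in naive cells. The IL-12 arrays were below the IL-2 arrays and between the naive arrays. The log2 fold changes were -0.36 ± 0.16 for IL-12 against IL-2 (limma adjusted p = 0.148), 0.05 ± 0.16 for IL-12 against naive (0.810) and 0.41 ± 0.16 for IL-2 against naive (0.0662). These values moved with single arrays. IL-2 against naive was 0.64 and called without naive array 2 (limma adjusted p = 0.00477), 0.17 without naive array 1, and called with centred arrays (0.0446). IL-12 against naive lay between -0.18 and 0.28 without 1 naive array, and IL-12 against IL-2 was called in a fit of the primed arrays alone (0.0376). The fold change of Atp6v0d2 exceeded that of Atp6v0d1 by 3.53 for IL-12 against IL-2 and by 3.14 for IL-12 against naive, and differed by -0.38 for IL-2 against naive. An exact two-sided permutation test gave p = 0.333 for each of these 3 differences, the smallest that 2 against 2 arrays (6 splits) allow. The test could not pass 0.05 and gave the same p for 3.53 and -0.38, so it decides nothing here.

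Among V1 genes, 0 of 10 tested were higher and 1 was lower in IL-12 than in IL-2 cells by limma (1 and 2 at an unadjusted p under 0.05). Atp6v1d, a subunit of the central shaft, had values of 11.13 and 11.05 in IL-12 cells, 11.52 and 11.50 in IL-2 cells and 10.75 and 11.05 in naive cells. The IL-12 arrays lay below the IL-2 arrays, and the log2 fold change was -0.42 ± 0.12 (limma adjusted p = 0.0424); the call was lost without any 1 of the 4 primed arrays (0.115 to 0.216), with arrays centred on their medians (0.0890) and with no filter (0.0564). The catalytic subunit gene Atp6v1a (probe set 10439566) had values of 9.97 and 10.06 in IL-12 cells, 9.62 and 9.60 in IL-2 cells and 8.69 and 9.08 in naive cells. Its IL-12 arrays were above its IL-2 arrays, by 0.40 ± 0.14, which did not pass the test (limma adjusted p = 0.0694; 0.0115 in a fit of the primed arrays alone). The other 8 tested V1 genes had log2 fold changes from -0.36 (Atp6v1g2, adjusted p = 0.0594) to 0.20 (Atp6v1g1) and none was called.

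In V0, 1 of 7 tested genes, Atp6v0d2, was higher and 0 were lower by limma, also at an unadjusted p under 0.05. Besides the d subunits, the a subunit genes Atp6v0a1 and Atp6v0a2 differed by 0.20 and 0.05, and the c″ subunit gene Atp6v0b by -0.19. The small e subunit genes Atp6v0e and Atp6v0e2 differed by 0.10 and -0.03 on the log2 scale. Of the accessory genes, Atp6ap1 differed by -0.10 ± 0.15 and Atp6ap2, whose product is also called the prorenin receptor, by -0.31 ± 0.14 (limma adjusted p = 0.677 and 0.156). The 5 V-ATPase genes that did not pass the filter were Atp6v0a4, Atp6v1b1, Atp6v1c2, Atp6v1g3 and Atp6ap1l, which read between 4.40 and 6.80 on all 6 arrays. The first 4 of them are forms known mainly from kidney and other epithelia.

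Both primed groups were next set against naive cells. These 2 comparisons share the naive arrays, so they are not independent of each other. Between IL-12 and naive cells 3 of 19 V-ATPase genes were higher and 3 lower, where 57.9% of all tested genes were called (31.2% higher and 26.7% lower). Between IL-2 and naive cells 4 of 19 were higher and 2 lower, against 45.7% of all tested genes (25.8% higher and 19.9% lower). With all arrays fitted, the share of the pump's genes that was called, 31.6% in both comparisons, was below that of all tested genes. The naive arrays differed more for the 30 tested members than for all tested genes (median SD 0.20 against 0.12). The part of that spread in the lower share was not tested. Of calls at least 2-fold in size, the 19 held 2 for IL-12 (Atp6v0d2 and Atp6v1a) and 0 for IL-2 (limma, also at an unadjusted p under 0.05), where 17.2% and 10.8% of all tested genes were called. The 2 became 1 without naive array 1, and the 0 became 1 without IL-2 array 1. Without Atp6v0d2 and Atp6v0a1, the counts were 2 higher and 2 lower of 17 for IL-12, and 4 higher and 1 lower of 17 for IL-2. The 6 calls for IL-12 became 3 without IL-12 array 1, and the 6 for IL-2 became 10 without naive array 2. After centring of the arrays on their medians, no V-ATPase gene was lower than in naive cells in either comparison and 5 were higher in each; Atp6v0a1 did not pass the filter under that setting.

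V1 held 2 of the pump's 3 rises for IL-12 against naive and all 4 for IL-2 against naive. However, V1 also made up 10 of the 19 pump genes tested. A rise was called for 2 of 10 V1 members with IL-12, beside 31.2% of all tested genes. With IL-2 the count was 4 of 10, beside 25.8%. Whether V1 differs from the rest of the pump was not tested. Atp6v1a was 2.19-fold higher in IL-12 than in naive cells (log2 fold change 1.13 ± 0.14, limma adjusted p = 0.000139) and 1.66-fold higher in IL-2 cells than in naive cells (0.73 ± 0.14, limma adjusted p = 0.00257). All 4 primed arrays lay above both naive arrays, and these calls held under all 16 alternatives. Atp6v1f, a small subunit of the shaft, had values of 11.56 and 11.50 in IL-12 cells, 11.62 and 11.63 in IL-2 cells and 10.63 and 11.20 in naive cells. Its primed arrays were above the naive arrays, by 0.61 ± 0.17 for IL-12 (limma adjusted p = 0.0130, and 0.0614 without IL-12 array 1) and 0.71 ± 0.17 for IL-2 (limma adjusted p = 0.00828). Without naive array 1 the 2 differences were 0.32 and 0.43. Atp6v1d was higher in IL-2 cells than in naive cells by 0.61 ± 0.12 (limma adjusted p = 0.00365) and differed by 0.19 ± 0.12 between IL-12 and naive cells (limma adjusted p = 0.208). Atp6v1g2, a stalk subunit gene best known from neurons, had values of 8.23 and 8.33 in IL-12 cells, 8.52 and 8.76 in IL-2 cells and 8.13 and 8.22 in naive cells. It was higher in IL-2 cells than in naive cells by 0.47 ± 0.12 (limma adjusted p = 0.0107, and 0.110 without IL-2 array 2). Atp6v1h, a subunit that regulates the link between the sectors, was lower in IL-12 than in naive cells by a log2 fold change of -0.32 ± 0.11 (limma adjusted p = 0.0291). That call was lost without IL-12 array 1 (0.151), IL-12 array 2 (0.0748) or naive array 1 (0.0533), and with centred arrays (0.179).

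In V0, 2 of the a subunit genes, Atp6v0a1 and Atp6v0a2, were lower in the primed groups, while Atp6v0a4 was not tested and Tcirg1, the a3 gene, was called lower in neither comparison (IL-12 or IL-2 against naive). Atp6v0a1 (probe set 10381187) had values of 6.21 and 6.21 in IL-12 cells, 6.10 and 5.91 in IL-2 cells and 6.91 and 6.92 in naive cells. Every primed array lay below both naive arrays and below the filter's 6.83. The log2 fold change was -0.71 ± 0.11 for IL-12 (limma adjusted p = 0.000511) and -0.91 ± 0.11 for IL-2 (limma adjusted p = 0.000190). It entered the test through the naive arrays, where it is high, and both naive values were just above the filter; with no filter its limma adjusted p was 0.000563 for IL-12 and 0.000184 for IL-2. Atp6v0a2 was lower by smaller amounts, -0.28 ± 0.10 for IL-12 (limma adjusted p = 0.0336) and -0.33 ± 0.10 for IL-2 (limma adjusted p = 0.0210). Its calls were lost with the mean of its 2 probe sets (0.213 and 0.0672), with centred arrays (0.242 and 0.125) and without either array of the primed group concerned (0.0986 to 0.132); without either IL-2 array the call for IL-12 was also lost (0.0704). For Atp6v1f and Atp6v1g1, the other members with 2 probe sets, both probe sets gave the same direction in each comparison.

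**Figure D2:**
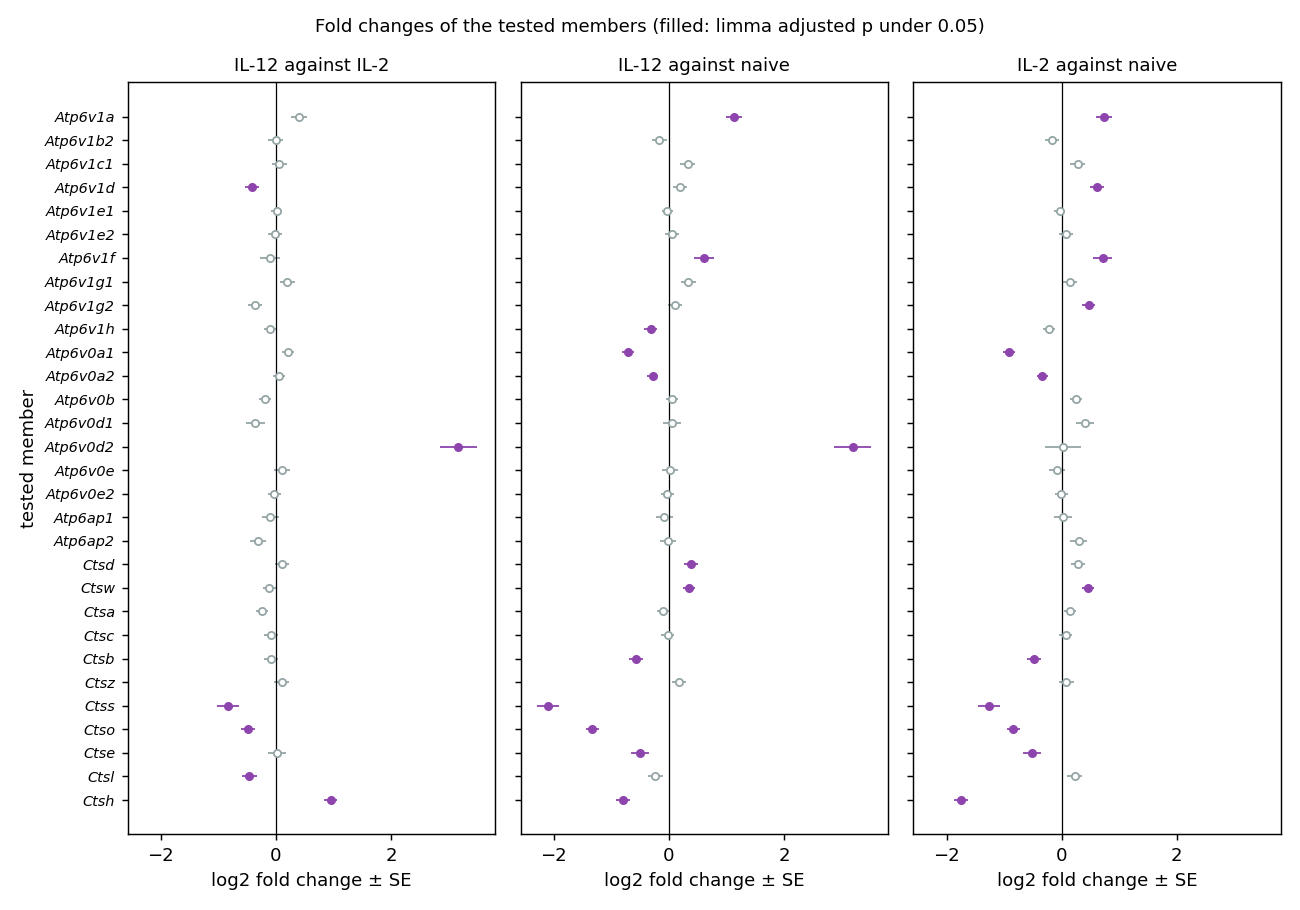
Log2 fold change ± SE of the 30 tested members in the 3 comparisons, with filled points for limma adjusted p under 0.05; V-ATPase genes are above the cathepsins. The point of Atp6v0d2 lies at 3.17 and 3.19 in the IL-12 comparisons and at 0.02 in IL-2 against naive.

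Of the 21 cathepsins, 11 passed the filter: Ctsa, Ctsb, Ctsc, Ctsd, Ctse, Ctsh, Ctsl, Ctso, Ctss, Ctsw and Ctsz. The other 10 were Cts6, Cts7, Cts8, Ctsf, Ctsg, Ctsj, Ctsk, Ctsll3, Ctsq and Ctsr, which read between 3.67 and 6.49 on all 6 arrays. Most of them are known for other tissues: Ctsk for osteoclasts, Ctsg for neutrophils, and Cts6, Cts7, Cts8, Ctsj, Ctsq and Ctsr for rodent placenta. Between the primed groups 1 of the 11 was higher and 3 were lower in IL-12 cells (36.4% called). In IL-12 against naive cells 2 were higher and 5 lower (63.6%), and in IL-2 against naive cells 1 was higher and 5 lower (54.5%). The background shares are the 20.8%, 57.9% and 45.7% given above. At least 2-fold calls numbered 0 between the primed groups (limma, also at an unadjusted p under 0.05), 2 for IL-12 against naive (Ctss and Ctso) and 2 for IL-2 against naive (Ctss and Ctsh). The 0 became 1 without IL-12 array 1, and the 2 for IL-2 became 1 without naive array 2. Median log2 fold changes of the 11 were -0.09, -0.23 and 0.07, against 0.02, 0.04 and 0.01 for all tested genes. The 4 calls between the primed groups became 1 or 2 without any 1 of the primed arrays, the 7 for IL-12 against naive became 4 without IL-12 array 1, and the 6 for IL-2 against naive became 3 without IL-2 array 2.

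**Figure D3:**
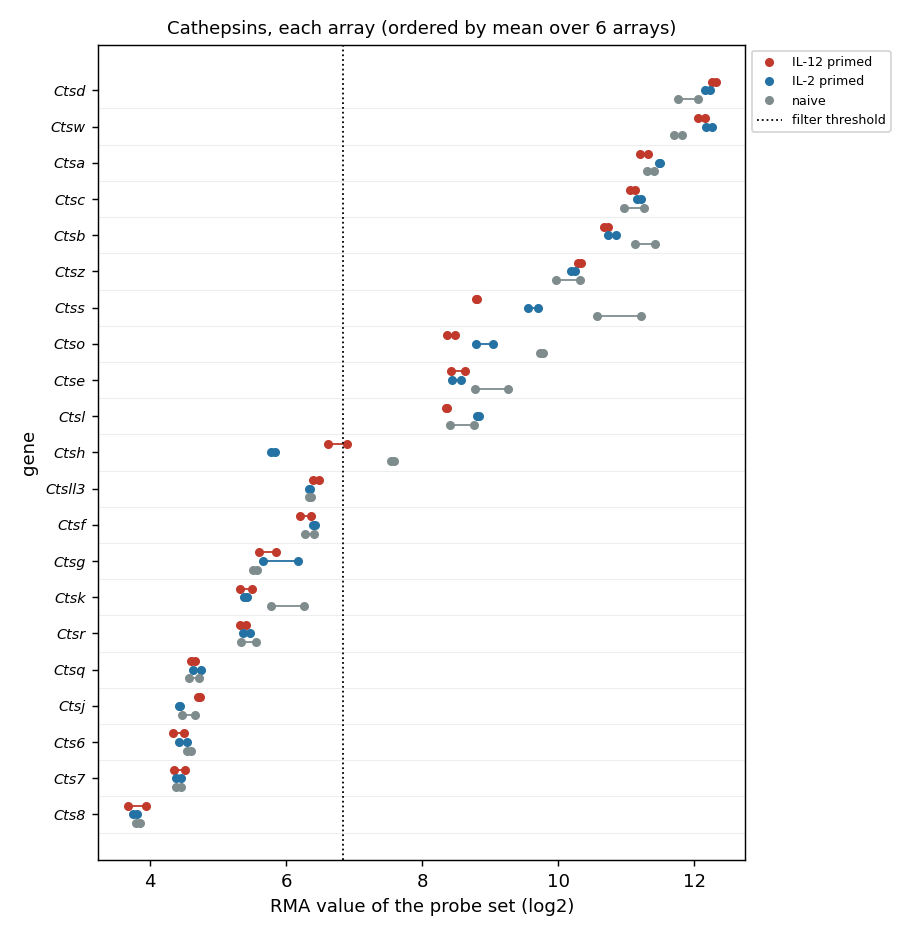
RMA values (log2, x axis) of the 21 cathepsin genes on IL-12, IL-2 and naive arrays, with the filter threshold as a dotted line; the order down the page is by mean and carries no comparison between probe sets. Ctss, Ctso and Ctsh show the widest gaps between the groups, and the 10 cathepsins that did not pass the filter lie left of the line.

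Ctsh (probe set 10587733), an aminopeptidase, had the smallest adjusted p of the cathepsins between the primed groups. It had values of 6.61 and 6.90 in IL-12 cells, 5.84 and 5.78 in IL-2 cells and 7.54 and 7.58 in naive cells. The groups did not overlap, with naive cells highest and IL-2 cells lowest. Its log2 fold change was 0.95 ± 0.12 for IL-12 against IL-2 (limma adjusted p = 0.000994), -0.80 ± 0.12 for IL-12 against naive (limma adjusted p = 0.000480) and -1.75 ± 0.12 for IL-2 against naive (limma adjusted p = 6.66e-06). It did not pass the filters at the 75th percentile or on the mean, and its 3 calls held under the other alternatives. Both IL-2 arrays and IL-12 array 1 read under the filter threshold of 6.83. The IL-2 mean of Ctsh (5.81) lay under the IL-2 means of the Y-linked genes Uba1y (5.90) and Sry (7.55). It lay above the 6 Y-linked genes whose group means were at most 4.96. The folds of Ctsh against IL-2 cells are thus measured from a low level and are not exact folds of transcript.

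Ctss (probe set 10494271), the cathepsin that acts on the invariant chain in antigen-presenting cells, had values of 8.80 and 8.79 in IL-12 cells, 9.56 and 9.71 in IL-2 cells and 10.56 and 11.22 in naive cells. The 3 groups did not overlap, and the IL-12 cells were lowest. Its fold change on the log2 scale was -0.84 ± 0.19 for IL-12 against IL-2 (limma adjusted p = 0.0157); the call was lost without any 1 of the 4 primed arrays (0.0647 to 0.120). Against naive cells it was -2.09 ± 0.19 for IL-12 (4.27-fold lower, limma adjusted p = 2.45e-05) and -1.26 ± 0.19 for IL-2 (2.39-fold lower, limma adjusted p = 0.000813).

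Ctso (probe set 10492699), a widely expressed cysteine cathepsin, had values of 8.37 and 8.48 in IL-12 cells, 8.79 and 9.04 in IL-2 cells and 9.77 and 9.73 in naive cells. It had the same order as Ctss, again without overlap. IL-12 cells were lower than IL-2 cells by a log2 fold change of -0.49 ± 0.12 (limma adjusted p = 0.0199); the call was lost without IL-12 array 1 (0.119), IL-12 array 2 (0.0712) or IL-2 array 2 (0.189). Against naive cells it was -1.33 ± 0.12 for IL-12 (2.51-fold lower, limma adjusted p = 2.17e-05) and -0.84 ± 0.12 for IL-2 (limma adjusted p = 0.000549).

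Ctsl (probe set 10410124), an endopeptidase that also processes the invariant chain, had values of 8.37 and 8.35 in IL-12 cells, 8.84 and 8.80 in IL-2 cells and 8.41 and 8.77 in naive cells. IL-12 arrays were below IL-2 arrays, with a log2 fold change of -0.46 ± 0.13 (limma adjusted p = 0.0357). That call was lost without any 1 of the 4 primed arrays (0.128 to 0.172), with centred arrays (0.0753) and with quantile normalization (0.0928). Neither primed group differed from naive cells past the test (-0.23 for IL-12 and 0.23 for IL-2; limma adjusted p = 0.154 and 0.178). Single naive arrays decided this: IL-12 was called lower without naive array 1 (-0.41, limma adjusted p = 0.0106), and IL-2 was called higher without naive array 2 (0.40, limma adjusted p = 0.0114).

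Ctsb (probe set 10415844), an abundant lysosomal cysteine protease, had values of 10.73 and 10.67 in IL-12 cells, 10.84 and 10.73 in IL-2 cells and 11.12 and 11.42 in naive cells. Both primed groups were below naive cells, by a log2 fold change of -0.57 ± 0.12 for IL-12 (limma adjusted p = 0.00368) and -0.48 ± 0.12 for IL-2 (limma adjusted p = 0.0115, and 0.0902 without IL-2 array 2 and 0.0561 with centred arrays). Ctse (probe set 10349648), an aspartic protease of endosomes, had values of 8.42 and 8.63 in IL-12 cells, 8.44 and 8.57 in IL-2 cells and 8.78 and 9.26 in naive cells. Its primed arrays overlapped each other and were below the naive arrays. The log2 fold changes against naive cells were -0.50 ± 0.16 for IL-12 (limma adjusted p = 0.0263) and -0.52 ± 0.16 for IL-2 (limma adjusted p = 0.0281). Without naive array 2 they were -0.26 and -0.28 and neither was called (0.114 and 0.103); the IL-12 call was also lost without IL-12 array 1 (0.149) and the IL-2 call without IL-2 array 1 (0.152) or 2 (0.0762). Centring the arrays also ended both calls (0.101 for IL-12 and 0.0905 for IL-2).

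Ctsd and Ctsw were the cathepsins called higher than in naive cells, Ctsd in IL-12 cells and Ctsw in both primed groups, and the 2 calls for IL-12 became 0 with quantile normalization and without any 1 of IL-12 array 1, IL-12 array 2 and naive array 1. Ctsd (probe set 10569319), the main aspartic protease of lysosomes, whose promoter holds 2 hexamers, had values of 12.32 and 12.27 in IL-12 cells, 12.15 and 12.23 in IL-2 cells and 11.77 and 12.05 in naive cells. All primed arrays were above the naive arrays. Ctsd differed on the log2 scale by 0.38 ± 0.12 for IL-12 against naive (limma adjusted p = 0.0231) and 0.28 ± 0.12 for IL-2 against naive, which was not called (limma adjusted p = 0.0850). The IL-12 call was lost without IL-12 array 1 (0.107), IL-12 array 2 (0.0736) or naive array 1 (0.0831), and with quantile normalization (0.0530). Without naive array 1 the IL-12 difference was 0.24. The IL-2 difference was 0.43 and called without naive array 2 (limma adjusted p = 0.0110).

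Ctsw (probe set 10465059), the cathepsin of cytotoxic lymphocytes, had values of 12.16 and 12.05 in IL-12 cells, 12.17 and 12.26 in IL-2 cells and 11.70 and 11.82 in naive cells. Its primed arrays were above the naive arrays. It differed on the log2 scale by 0.34 ± 0.11 for IL-12 (limma adjusted p = 0.0211) and 0.46 ± 0.11 for IL-2 (limma adjusted p = 0.00749, and 0.0693 without IL-2 array 2). The IL-12 call was lost without IL-12 array 1 (0.131), IL-12 array 2 (0.0514) or naive array 1 (0.0584), and with quantile normalization (0.114). Between the primed groups it differed by -0.11 ± 0.11 (limma adjusted p = 0.496).

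Ctsa, Ctsc and Ctsz were called in none of the 3 comparisons by limma. Ctsa (probe set 10478594), the serine carboxypeptidase that protects beta-galactosidase and neuraminidase, had values of 11.32 and 11.20 in IL-12 cells, 11.48 and 11.50 in IL-2 cells and 11.30 and 11.41 in naive cells. Ctsc (probe set 10554789), the dipeptidyl peptidase that activates granzymes, had values of 11.05 and 11.13 in IL-12 cells, 11.15 and 11.21 in IL-2 cells and 10.97 and 11.25 in naive cells. Ctsz (probe set 10490212), a carboxypeptidase, had values of 10.34 and 10.30 in IL-12 cells, 10.19 and 10.25 in IL-2 cells and 9.97 and 10.32 in naive cells. The Ctsc differences were -0.09 ± 0.12 for IL-12 against IL-2, -0.02 ± 0.12 for IL-12 against naive and 0.07 ± 0.12 for IL-2 against naive. All 9 differences of these genes were between -0.24 and 0.18 on the log2 scale. The difference of Ctsz for IL-12 against naive was 0.35 and called without naive array 2 (limma adjusted p = 0.0186), and 0.0025 without naive array 1.

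Markers of antigen-presenting cells, which also make cathepsins, differed between the same groups. Their counts and those of the lists after them stand against the shares of all tested genes that were called, which were 9.82% higher and 11% lower for IL-12 against IL-2, 31.2% and 26.7% for IL-12 against naive, and 25.8% and 19.9% for IL-2 against naive. Of 12 tested B cell markers, 10 were higher in IL-12 than in IL-2 cells, and all 12 were lower than in naive cells in each primed group. Their mean level over the list was 7.41 and 7.48 on the IL-12 arrays, 6.51 on both IL-2 arrays and 8.76 and 8.65 on the naive arrays. Of 6 MHC class II presentation genes, 5 were higher in IL-12 than in IL-2 cells, and 5 were lower than naive in each primed group. Their mean was 9.15 and 9.03 on the IL-12 arrays, 7.87 and 7.72 on the IL-2 arrays and 10.16 and 10.14 on the naive arrays. The means of both lists were highest in naive and lowest in IL-2 cells, the order of Ctsh, although Fcer2a and H2-DMa did not have it. Ctss and Ctso were lowest in IL-12 cells and highest in naive cells. By group mean, genes of several lists had that order too, and the ones named here are examples. They include the natural killer list genes Fcer1g and Fcgr3 and the hydrolase genes Acp5, Lipa, Sgsh and Idua. The CD8 T cell markers Cd8a, Cd8b1 and Cd3e also had it. Of these examples, Acp5, Lipa, Sgsh, Idua and Cd8b1 were called between the primed groups. Other genes of the same lists, such as Lgmn and Cd3d, did not have that order. Of 13 myeloid and dendritic cell markers, 6 were tested, of which 2 (Itgam and Mpeg1) were higher in IL-12 than in IL-2 cells; 1 was higher and 4 were lower in IL-12 than in naive cells, and 5 were lower in IL-2 cells than in naive cells. Their mean was 6.20 and 6.24 on the IL-12 arrays, 6.04 and 5.89 on the IL-2 arrays and 7.07 and 7.16 on the naive arrays. Lyz2, the lysozyme gene of macrophages, had values of 5.84 and 5.64 in IL-12 cells, 5.65 and 5.20 in IL-2 cells and 9.31 and 9.35 in naive cells. Csf1r, the macrophage growth factor receptor gene, had values of 5.96 and 6.05 in IL-12 cells, 5.88 and 5.87 in IL-2 cells and 8.52 and 8.95 in naive cells. Both were under the filter's 6.83 on every primed array and well over it on the naive arrays. Ctss, Ctsh, Ctsb, Ctse and Ctso were higher in naive cells together with these markers, and the part of other cells in them was not tested. Of 10 CD8 T cell markers, 0 were higher and 5 lower in IL-12 than in IL-2 cells by limma (0 and 7 at an unadjusted p under 0.05), a count that was 1 without any 1 primed array and 6 without either naive array. Against naive cells 0 were higher and 6 lower in IL-12 cells (the same at an unadjusted p under 0.05; 3 lower without either IL-12 array), and 1 was higher and 1 lower in IL-2 cells. Of 5 natural killer cell markers on the array, 2 passed the filter; both were lower than in naive cells in each primed group, and 0 were called between the primed groups by limma or at an unadjusted p under 0.05. The mean of the 5 was 5.72 and 5.78 on the IL-12 arrays, 5.84 and 5.68 on the IL-2 arrays and 6.73 and 6.87 on the naive arrays. The 2 tested were Fcer1g and Fcgr3, whereas Ncr1, Klrb1c and Klra8 did not pass the filter. Ctsw, which natural killer cells also make, was higher in the primed groups, and the part of such cells in it was not tested.

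**Figure D4:**
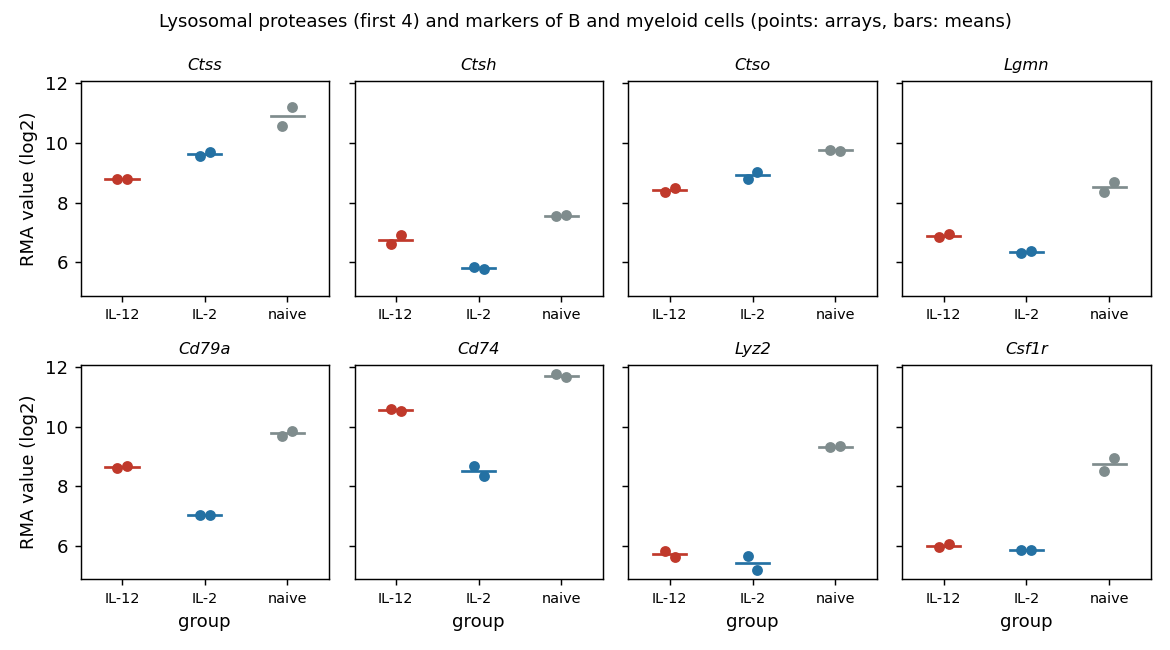
RMA values (log2, y axis) of 4 lysosomal proteases and of 4 marker genes of B cells, antigen presentation and myeloid cells by group, with points for arrays and bars for means. Ctsh and Lgmn share the order of Cd79a and Cd74 (naive highest, IL-2 lowest), whereas Ctss and Ctso are lowest in IL-12 cells.

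Other genes of the acid compartment were read from lists of known function. Of 12 tested genes for the a3 subunit and for assembly and regulation of the pump, 1 was higher and 4 were lower in IL-12 than in IL-2 cells; the 5 calls became 1 or 2 without a primed array and 6 without a naive array. Tcirg1, the a3 subunit gene that pairs with Atp6v0d2 in osteoclasts, had values of 9.81 and 9.59 in IL-12 cells, 10.24 and 10.23 in IL-2 cells and 9.98 and 9.67 in naive cells. It was lower in IL-12 than in IL-2 cells, with a log2 fold change of -0.53 ± 0.13 (limma adjusted p = 0.0231). Against naive cells, where Atp6v0d2 was also higher in IL-12 cells, Tcirg1 differed by -0.12 ± 0.13 (limma adjusted p = 0.456). In IL-2 cells it was above naive cells by 0.41 ± 0.13 (limma adjusted p = 0.0328). Ncoa7, a V-ATPase binding protein of the TLDc family, and Dmxl1, a rabconnectin that helps assemble the pump, were lower too, by log2 differences of -0.74 ± 0.12 and -0.48 ± 0.10 (limma adjusted p = 0.00366 and 0.0130). In IL-12 against naive cells 3 of the 12 were higher and 2 lower, and in IL-2 against naive cells 5 were higher and 1 lower. Vma21, an assembly chaperone named here after its values were seen, was higher by 1.36 ± 0.16 in IL-12 and 0.91 ± 0.16 in IL-2 cells than in naive cells (limma adjusted p = 0.000126 and 0.00198).

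Genes of lysosomal membrane proteins were lower in IL-12 cells or not called. Of 21 tested, 0 were higher and 8 lower in IL-12 than in IL-2 cells by limma (0 and 14 at an unadjusted p under 0.05), where 11% of all tested genes were lower, with a median of -0.30. Leaving out 1 array gave 5 or 6 lower without a primed array and 13 without a naive array, with 0 higher each time by limma. Against naive cells 0 were higher and 11 lower in IL-12 cells (2 and 12 at an unadjusted p under 0.05), and 5 higher and 3 lower in IL-2 cells. The channel gene Mcoln2 had values of 8.15 and 8.37 in IL-12 cells, 9.63 and 9.65 in IL-2 cells and 8.74 and 8.69 in naive cells. Its log2 fold change was -1.38 ± 0.11 for IL-12 against IL-2 (limma adjusted p = 0.000104). Cln3, mutated in juvenile Batten disease, and Slc38a9, the arginine sensor of the lysosome, were lower by log2 differences of -1.22 ± 0.10 and -0.90 ± 0.10 (limma adjusted p = 0.000112 and 0.000519). Lamp1, the abundant membrane glycoprotein, differed by -0.15 ± 0.13 and the macrophage-rich Cd68 by -0.03 ± 0.14, and neither was called (limma adjusted p = 0.429 and 0.906).

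Of 34 tested lysosomal hydrolases and activators, 3 were higher and 11 lower in IL-12 than in IL-2 cells, with a median of -0.21; leaving out 1 array gave 4 to 15 lower. Sgsh, Idua and Lipa, which degrade heparan sulfate, glycosaminoglycans and lysosomal lipid esters, were lower by log2 differences of -0.76 ± 0.11, -0.69 ± 0.11 and -0.68 ± 0.11 (limma adjusted p = 0.00195, 0.00296 and 0.00352). Against naive cells 9 were higher and 9 lower in IL-12 cells, and 11 higher and 6 lower in IL-2 cells. Lgmn, the asparaginyl endopeptidase that cleaves several cathepsins to their mature forms, had values of 6.83 and 6.96 in IL-12 cells, 6.30 and 6.39 in IL-2 cells and 8.36 and 8.69 in naive cells. It had the order of Ctsh and of the B cell and MHC class II markers, and its log2 fold change was 0.55 ± 0.13 for IL-12 against IL-2 (limma adjusted p = 0.0194). Of 7 tested genes for mannose 6-phosphate sorting, which brings hydrolases to lysosomes, 2 were higher and 0 lower by limma in IL-12 than in IL-2 cells (3 and 0 at an unadjusted p under 0.05): Gga2, an adaptor, by 0.64 ± 0.12 and Gnptab, which makes the sorting tag, by 0.47 ± 0.12 (limma adjusted p = 0.00848 and 0.0249). These 2 calls became 1 without IL-12 array 1 and 0 without any 1 of the other 3 primed arrays. Against naive cells, 1 was higher and 2 lower in IL-12 cells, and 0 higher and 2 lower in IL-2 cells by limma, with the same 0 and 2 at an unadjusted p under 0.05.

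**Figure D5:**
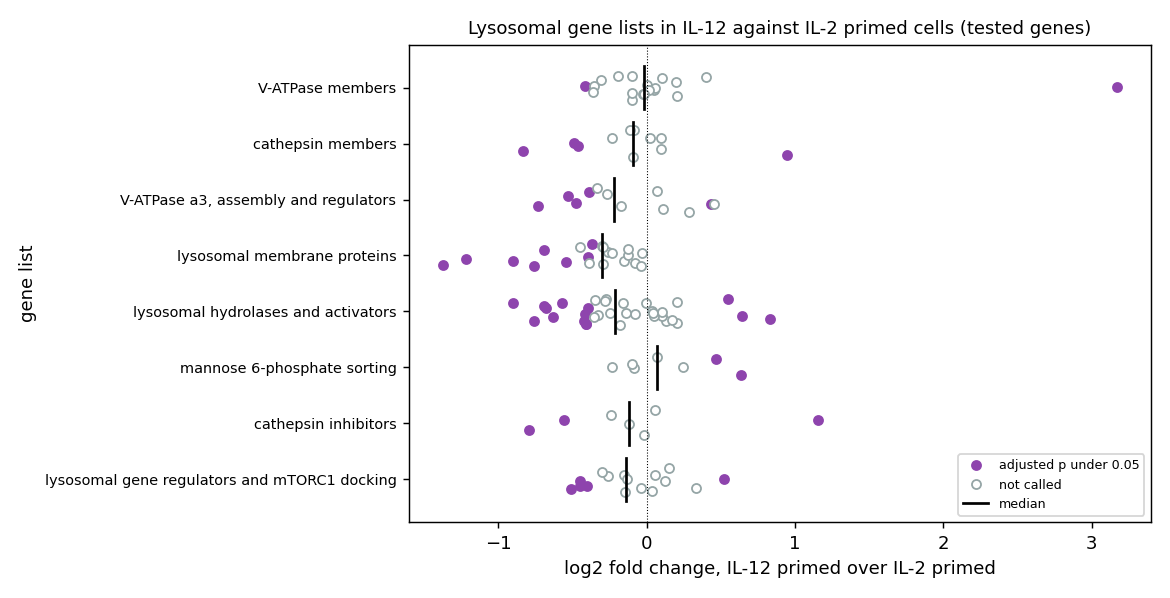
Log2 fold changes for IL-12 against IL-2 primed cells (x axis) of the tested genes in 8 lysosomal gene lists, with filled points for limma adjusted p under 0.05 and black bars for medians; the vertical scatter within a list has no meaning. Atp6v0d2 is the lone point at 3.17, and the list of lysosomal membrane proteins has 8 filled points, all below 0.

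Of 7 tested cystatins and serpins, listed here as cathepsin inhibitors, 1 was higher and 2 were lower in IL-12 than in IL-2 cells. These calls between the primed groups were all serpins. Against naive cells, 4 were higher and 1 lower in IL-12 cells, and 3 were higher and 1 lower in IL-2 cells. Serpinb9, a serpin of cytotoxic cells best known to inhibit granzyme B, had values of 9.30 and 9.52 in IL-12 cells, 8.46 and 8.04 in IL-2 cells and 7.81 and 8.12 in naive cells. It was higher in IL-12 than in IL-2 cells by 1.16 ± 0.17 (limma adjusted p = 0.00202). Serpinb6a and Serpinb6b, intracellular serpins, were lower in IL-12 than in IL-2 cells, by log2 differences of -0.80 ± 0.12 and -0.56 ± 0.13 (limma adjusted p = 0.00265 and 0.0182). Both were higher than in naive cells, by 1.20 and 1.05 in IL-12 and by 2.0 and 1.61 in IL-2 cells. Cst7, the lysosomal cystatin F that restrains cathepsin C in cytotoxic lymphocytes, differed by -0.24 ± 0.12 between the primed groups (limma adjusted p = 0.201). Cst3, the secreted cystatin C, differed by -0.12, and Cstb, the cytosolic cystatin B, by 0.06 (limma adjusted p = 0.612 and 0.813). Cstb was higher than in naive cells by 0.69 in IL-12 and 0.63 in IL-2 cells (limma adjusted p = 0.00329 and 0.00727).

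Of 16 tested regulators of lysosomal genes and of mTORC1 docking at the lysosome, 1 was higher and 4 were lower in IL-12 than in IL-2 cells; the 5 calls became 0 without either IL-2 array, 1 without either IL-12 array and 7 without either naive array. Tfeb had values of 8.68 and 8.73 in IL-12 cells, 8.86 and 9.06 in IL-2 cells and 8.54 and 8.80 in naive cells, and was called in none of the 3 comparisons (limma adjusted p = 0.178, 0.846 and 0.0887). Flcn, the folliculin that keeps TFEB relatives in check, Lamtor4, a Ragulator subunit, and Rragb, a Rag GTPase, were lower, by log2 differences of -0.51 ± 0.10, -0.45 ± 0.10 and -0.45 ± 0.11 (limma adjusted p = 0.00725, 0.0163 and 0.0206). Against naive cells 5 were higher and 5 lower in IL-12 cells, and 4 higher and 2 lower in IL-2 cells.

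Because Atp6v0d2 is known from osteoclasts, other genes of osteoclast fusion and resorption were read. Of 10, 5 passed the filter, and 1 was higher (Ocstamp) and 3 were lower in IL-12 than in IL-2 cells; the 4 calls became 1 without IL-2 array 2. Itgb3, the integrin beta 3 chain, Acp5, the tartrate-resistant acid phosphatase, and Nfatc1, the transcription factor that drives Atp6v0d2 in osteoclasts, were the 3 lower genes, by log2 differences of -1.57 ± 0.10, -0.90 ± 0.16 and -0.64 ± 0.11 (limma adjusted p = 2.57e-05, 0.00525 and 0.00563). Dcstamp, a fusion gene, read between 5.65 and 6.10 on the 6 arrays and did not pass the filter. Ctsk, the osteoclast collagenase, had values of 5.50 and 5.32 in IL-12 cells, 5.37 and 5.43 in IL-2 cells and 6.26 and 5.77 in naive cells. Ocstamp, another fusion gene, was higher in IL-12 than in IL-2 cells by 0.50 ± 0.14 (limma adjusted p = 0.0338).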

How the data were processed

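Biotin-labelled total RNA of 6 CD8+ T cell samples was measured on 6 Affymetrix arrays, per the labels' protocols. The authors deposited a table of log2 values covering 35556 probe sets. RMA (background correction, quantile normalization and probe summary) is named in the submitters' processing notes, with version, settings and genome build not given in the sources used here. Deposited values spanned 2.51 to 14.72 and 0 value columns belonged to no sample. The small number of arrays limits the precision.

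The platform annotation, which may be outdated, gave 21789 probe sets 1 symbol, 1621 several and 12146 none; 21698 of the first matched RefSeq's gene table (GRCm38.p6). For each gene the probe set with the highest mean was used. The 6 arrays entered 1 fit of 3 group means in limma 3.58.1 under R 4.3.3 (two-sided, without a replicate block), whose spread had 3 residual degrees of freedom and 5.62 from the prior, with Benjamini-Hochberg adjustment over 11147 genes. The fit was tested on simulated data. Motifs were searched with Python 3.11.15.

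The members, gene lists and tests were chosen with earlier results of these data known. Per-array values are given for Atp6v0d2, Atp6v0d1, called members with a log2 fold change of at least 1 in size and cathepsins that passed the filter, and, chosen after their values were seen, for Atp6v1d, Atp6v1f, Atp6v1g2, Atp6v0a1 and Ctsk; Vma21 was also named after its values were seen. From every other list, up to 3 genes with the smallest adjusted p for IL-12 against IL-2 and a fixed set were named. Alternatives changed the filter, probe set choice, scaling, variance model or groups fitted, added a replicate block, or left out an array; those for the lists were added after seeing the data.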

Additional observations from a re-analysis of the deposited data

How the results depend on the processing

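For 20 of the 30 tested members, each of the 3 comparisons was recomputed under up to 16 alternatives. They were the 11 tested cathepsins, Atp6v0d1 and the V-ATPase genes called in any comparison. The other tested members, all V-ATPase genes called in none, entered only the counts of calls. The share called among the results below is therefore not that of all tested members. Of these 60 results, 31 were called at first, 16 of these stayed called under every alternative in which the gene was tested, and 0 of the 60 reversed. Atp6v0d2 did not pass the filters at the 75th percentile or on the mean over 6 arrays, and for IL-12 against IL-2 its adjusted p lay between 8.4e-06 and 0.00512 in the other 14. Its log2 fold change was 2.54 without IL-12 array 1 and 3.80 without IL-12 array 2.

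The 2 V-ATPase calls for IL-12 against IL-2 became 1 with centred arrays, 1 with a filter at the 75th percentile, 1 with a filter on the mean, 1 with no filter, 6 with only the groups compared in the fit, and 1 to 6 when an array was left out (1 without any primed array, 6 without either naive array). Leaving out an array gave 3 to 9 V-ATPase calls for IL-12 against naive (main 6; 3 without IL-12 array 1, 9 without naive array 2) and 4 to 10 for IL-2 against naive (main 6; 10 without naive array 2). For cathepsins it gave 1 to 4 calls for IL-12 against IL-2 (main 4), 4 to 7 for IL-12 against naive (main 7) and 3 to 7 for IL-2 against naive (main 6). Over all genes, the 2321 calls for IL-12 against IL-2 became 3533 with only the groups compared and 737 to 3533 without an array, and the 5095 for IL-2 against naive became 3341 to 5786. Members of the lysosomal membrane list lower in IL-12 than in IL-2 cells numbered 5 to 13 over all alternatives (main 8), with 0 higher in each by limma, and lower hydrolases 4 to 15 (main 11). Leaving out an array moved other list counts against naive cells as well: for IL-12, regulators 5 to 11 (main 10) and sorting genes 1 to 4 (main 3), and for IL-2, pump assembly genes 2 to 7 (main 6), regulators 3 to 8 (main 6), inhibitors 2 to 6 (main 4), sorting genes 1 to 3 (main 2) and membrane genes 5 to 10 (main 8). Without an array, calls of at least 2-fold moved by at most 1 among V-ATPase genes and among cathepsins in each comparison. The cause of these changes was not tested.

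Centring each array moved the median of all tested genes by 0.12 for IL-12 against naive and 0.10 for IL-2 against naive. The split was then 4051 higher and 2279 lower for IL-12 (3482 and 2972 before) and 3282 higher and 1562 lower for IL-2 (2873 and 2222 before). Arrays of the same replicate number correlated in their deviations at 0.15 (IL-12 and IL-2), -0.02 (IL-12 and naive) and 0.02 (IL-2 and naive). These correlations run across genes, which are not replicates, so they cannot decide whether such arrays shared a mouse or culture. The labels do not state it either. With the replicate block there were 3, 7 and 6 V-ATPase calls, 4, 7 and 6 cathepsin calls and 2414, 6471 and 5128 gene calls in the 3 comparisons. Signals near the level of Y-linked genes, among them the IL-2 and naive values of Atp6v0d2, limit what fold changes can be read.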
